A study of Danio rerio with 6 samples.

Results

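The immediate early response genes described here are fosab, fosaa, fosl1a, junba, junbb, egr1, ier2a, nr4a1, btg2 and atf3, chosen by name, with any row of the same symbol and a numeric suffix added in. All 10 were found among 37685 genes, in 12 rows of the table, and all 10 passed the filter on low counts that left 22247 genes for testing. RNA was sequenced from whole zebrafish larvae aged 72 hours post fertilization (hpf) in 2 groups of 3 libraries. The morpholino larvae were of the AB wild-type strain and had received, as 1-cell embryos, a morpholino against GJB2, a gap junction gene of hearing. A morpholino is a synthetic antisense oligonucleotide that blocks the translation or splicing of an RNA. The control larvae were wild-type AB fish, and fish given a control oligonucleotide were not analysed here, so the effects of injection and of knockdown cannot be told apart. The sources used here do not give the number of larvae per library or say whether replicates were separate clutches, so p-values cover only the spread among libraries, which may in part be technical.

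Immediate early genes are transcribed within minutes of a stimulus, without new protein synthesis, from promoters that kinase cascades such as ERK, JNK and p38 reach through factors like SRF, ELK1 and CREB. Many encode transcription factors: FOS and JUN proteins pair through leucine zippers into the dimers called AP-1, EGR1 is a zinc finger factor, NR4A1 an orphan nuclear receptor, and ATF3 a bZIP factor also induced by cellular stress. In fish as in mammals their transcripts mark neuronal firing, wounding and regeneration. Teleost fish kept both copies of several of these genes after a genome duplication, which is why fosab and fosaa, or junba and junbb, stand side by side.

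The libraries held 17916896, 19743658 and 15720292 counts in the morpholino group and 14582030, 16539532 and 16725570 in the control group. No row of the table was named gjb2. The row gjb8, taken as the nearest candidate for the target with uncertainty, was listed at 0 in all 6 libraries, and gjb8_1 held 114, 14 and 16 counts in the morpholino libraries and 7, 8 and 11 in the controls, so this candidate gives no check of the group labels. All 21 marker genes of skin, muscle, neurons, blood, liver and other larval tissues were detected in every library, with summed levels of 23399 to 25581 CPM in morpholino libraries and 23696 to 24034 CPM in controls. CPM is counts per 1e6 counts after TMM scaling. TPM, taken as the authors gave it, is scaled for transcript length and to an equal sum per library, without TMM. In whole larvae, fewer cells of a type and less RNA per cell cannot be told apart.

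In the morpholino larvae 2 of the 10 genes fell, the nuclear receptor gene nr4a1 and the antiproliferative gene btg2, and none rose. Among all genes tested 3.31% were called lower, 2.88% higher and 6.19% in either direction, at a Benjamini-Hochberg adjusted p under 0.05 in edgeR's quasi-likelihood test. At an unadjusted p under 0.05 the members numbered 4 lower and 1 higher, and DESeq2 and limma voom also called 2 lower and 0 higher. Many other genes passed the unadjusted cutoff too, as fosl1a, just outside it at an unadjusted p of 0.0508, ranked only 4872 among the 22247 genes tested. The genes that passed it, in either direction, were thus fewer than 4872 of 22247, and the members' counts were not tested against this. The shares of 3.31% and 2.88% are therefore no baseline for unadjusted counts, here or in the lists of related genes below. The log2 fold change, morpholino over control, was below 0 for 8 of the 10 genes and above 0 for fosaa and egr1, with a median of -0.27 beside 0.01 over all genes tested. Of all genes tested 48.6% were below 0. The groups did not overlap in CPM for 4 genes lower in the morpholino libraries (fosab, nr4a1, btg2, atf3), a pattern held by 14.1% of all genes, and for 1 gene higher there (egr1), held by 13.7%. The 10 genes were picked with earlier results of these data known, btg2 among them.

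**Figure D1:**
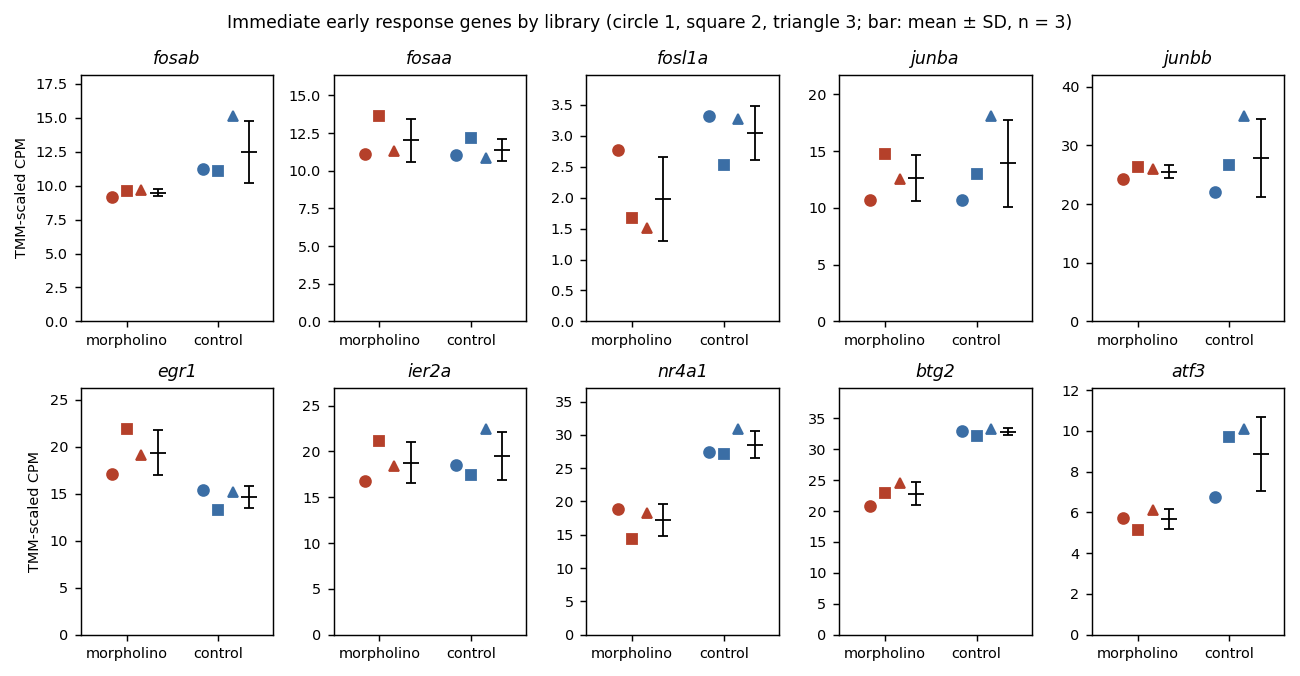
Level of each of the 10 genes in TMM-scaled CPM (y axis, from 0) in the morpholino libraries (red, left) and the control libraries (blue, right), with circle, square and triangle for libraries 1, 2 and 3 and a bar for the mean ± SD (n = 3). nr4a1 and btg2 are lower in every morpholino library, and control library 3 is the highest control for 7 of the genes.

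Among the Fos genes, fosab encodes a zebrafish c-Fos, the partner that turns Jun proteins into strong AP-1 dimers. Its level was 9.17, 9.59 and 9.70 CPM in morpholino libraries 1 to 3 and 11.2, 11.1 and 15.1 CPM in control libraries 1 to 3. The morpholino libraries lay close together and below every control, and control library 3 stood above the other controls. The log2 fold change was -0.40 ± 0.14 (SE) and was not called (adjusted p = 0.132). With control library 3 left out it was -0.23 (adjusted p = 0.407).

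Its duplicate fosaa had 11.1, 13.7 and 11.3 CPM in the morpholino libraries and 11.1, 12.2 and 10.9 CPM in the controls, with overlapping groups. The log2 fold change was 0.08 ± 0.12, with a 95% interval of -0.19 to 0.35 (adjusted p = 0.767). The ratio of fosab to fosaa in TPM was 2.51, 2.14 and 2.62 in the morpholino libraries and 3.08, 2.77 and 4.24 in the controls, without overlap. An exact two-sided permutation test of the mean log2 ratio gave p = 0.1, the smallest that 3 libraries against 3 allow, and 0.2 after adjustment over the 4 relations tested this way. fosl1a encodes the Fos-related factor FRA1, which lacks the transactivation domain of c-Fos. It was the scarcest member, with 50, 32 and 24 counts in the morpholino libraries and 48, 42 and 55 in the controls. Its log2 fold change of -0.61 ± 0.28 did not pass (adjusted p = 0.232) and was -0.93 without morpholino library 1 (adjusted p = 0.120), and counting error alone gives an SE of 0.18 at this depth. Summed over the 3 Fos genes, the level was 13.6, 13.5 and 13.6 TPM in the morpholino libraries and 15.4, 15.7 and 19.8 TPM in the controls.

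The Jun genes junba and junbb encode JunB, an AP-1 subunit that in mammals can restrain the activity of c-Jun. For junba the levels were 10.7, 14.7 and 12.5 CPM in the morpholino libraries and 10.7, 13.0 and 18.1 CPM in the controls. For junbb they were 24.3, 26.3 and 26.0 CPM in the morpholino libraries and 22.0, 26.6 and 35.0 CPM in the controls. In both genes the controls spread over a wider range than the morpholino libraries, with control library 1 the lowest control and control library 3 the highest. For junbb the controls enclosed the morpholino libraries, while for junba control library 1 and morpholino library 1 were level.

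Neither Jun gene passed the test, with log2 fold changes of -0.14 ± 0.20 for junba (adjusted p = 0.749) and -0.13 ± 0.15 for junbb (adjusted p = 0.688). The 95% intervals ran from -0.60 to 0.32 and from -0.48 to 0.22. Without control library 3 both turned positive, at 0.10 for junba and 0.07 for junbb. The ratio of junba to junbb in TPM was 0.468, 0.597 and 0.513 in the morpholino libraries and 0.515, 0.519 and 0.550 in the controls (exact permutation p = 0.8, adjusted p = 0.8). Both duplicates had the same control library at the top.

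atf3 encodes a bZIP repressor that dimerizes with Jun proteins and is induced by the integrated stress response and by nerve or tissue injury. It had 5.75, 5.16 and 6.11 CPM in the morpholino libraries and 6.78, 9.70 and 10.1 CPM in the controls. The groups did not overlap, and control library 1 lay nearer to the morpholino libraries than to the other controls. The log2 fold change of -0.65 ± 0.18 stood just outside the threshold (adjusted p = 0.0569), with a 95% interval of -1.04 to -0.26. Without control library 1 the gene was called at -0.81 (adjusted p = 0.0230), and with no filter on low counts also (adjusted p = 0.0361). Leaving out any other single library gave values between -0.70 and -0.54, none of them called.

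nr4a1 encodes the nuclear receptor Nur77, which acts without a known hormone ligand and is induced by growth factors, stress and neuronal activity. Its level was 18.8, 14.4 and 18.3 CPM in the morpholino libraries and 27.5, 27.2 and 30.9 CPM in the controls. Every morpholino library was below every control, and the means were 17.2 ± 2.40 CPM in morpholino larvae and 28.5 ± 2.06 CPM in control larvae (SD, n = 3 each). The gene fell by 0.73 ± 0.11 on the log2 scale, to 0.602 of the control level (adjusted p = 0.00440). With 1 library left out the log2 fold change stayed between -0.80 and -0.62, and the gene was called in all 6 such fits (adjusted p between 0.00703 and 0.0220).

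Its reads lay in 2 rows of nearly equal length, nr4a1 and nr4a1_1, at 2923 and 2925 bases as implied by counts and FPKM. The row nr4a1 held 109, 77 and 91 counts in the morpholino libraries and 117, 159 and 237 in the controls, a log2 fold change of -1.01 ± 0.23 (adjusted p = 0.0284 over all rows). The row nr4a1_1 held 232, 200 and 199 counts in the morpholino libraries and 280, 292 and 283 in the controls, a change of -0.59 ± 0.12 (adjusted p = 0.0145). Over all rows as deposited, 4.54% were called lower and 3.77% higher. Both rows of nr4a1 were therefore called in the direction of their sum. The share of nr4a1_1 was 69.6 ± 2.26% in morpholino libraries and 63.2 ± 8.16% in controls (exact permutation p = 0.3, adjusted p = 0.4).

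egr1 encodes the zinc finger factor also known as Krox24, a sensitive marker of ERK signalling and of active neurons. With its 2 rows added, egr1 held 309, 420 and 304 counts in the morpholino libraries and 223, 220 and 256 in the controls. These were 17.1, 21.9 and 19.2 CPM in the morpholino libraries and 15.4, 13.3 and 15.2 CPM in the controls. Unlike the other members without overlap, egr1 was higher in every morpholino library. The log2 fold change of 0.41 ± 0.12 did not pass the test (adjusted p = 0.0685, 95% interval 0.15 to 0.66). Of the alternative fits, only the one with no filter on low counts called egr1 (adjusted p = 0.0471). It was not called in DESeq2 (adjusted p = 0.118), in limma voom (0.0770) or with any 1 library left out (0.0616 to 0.223).

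The rows of egr1 moved apart, so that its direction depended on how they were counted. The row egr1, on chromosome 14, held 125, 134 and 115 counts in the morpholino libraries and 141, 136 and 122 in the controls, a change of -0.25 ± 0.15 that did not pass (adjusted p = 0.368). The row egr1_1, which has no coordinates in the table, held 184, 286 and 189 counts in the morpholino libraries and 82, 84 and 134 in the controls. It rose by 0.98 ± 0.20 on the log2 scale (adjusted p = 0.0173).

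Both rows of egr1 had an implied length of 1536 bases, and that egr1_1 is a copy of egr1 is inferred from its name and this length. The share of egr1 reads in egr1_1 was 59.5%, 68.1% and 62.2% in the morpholino libraries and 36.8%, 38.2% and 52.3% in the controls. The 95% Wilson interval of morpholino library 1, 54.0% to 64.9%, overlapped that of control library 3, 46.2% to 58.4%, and these intervals cover counting error only. The groups did not overlap in this share (exact permutation p = 0.1, adjusted p = 0.2).

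**Figure D2:**
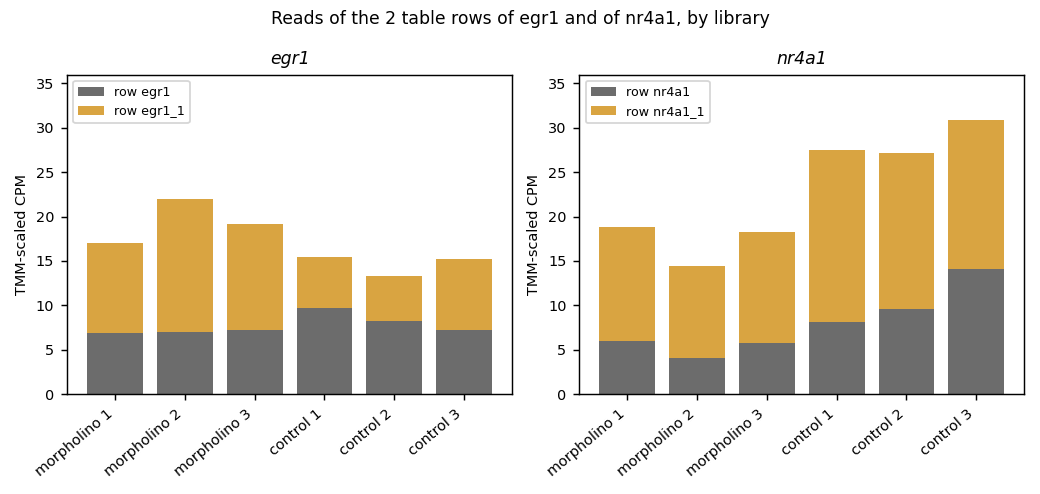
Stacked bars of TMM-scaled CPM (y axis, from 0) of the table's 2 rows for egr1 (left) and nr4a1 (right) in each library, morpholino libraries first. For egr1 the grey row lies between 6.90 and 7.23 CPM in morpholino libraries and between 7.25 and 9.75 CPM in controls and the yellow row egr1_1 is higher in the morpholino libraries, while for nr4a1 both rows are lower there.

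btg2 encodes a small protein that recruits the CCR4-NOT deadenylase to mRNA and slows cell division, and in mammals it is also a p53 target. It had 20.9, 22.9 and 24.6 CPM in the morpholino libraries and 32.9, 32.2 and 33.3 CPM in the controls. The controls were nearly identical, with a coefficient of variation of 1.67%, and lay above every morpholino library. btg2 fell to 0.695 of the control level, a log2 fold change of -0.53 ± 0.09 (adjusted p = 0.00551). It was called in all 6 fits with 1 library left out, at -0.58 to -0.47.

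ier2a encodes a short-lived nuclear protein, one of a pair of IER2 copies in zebrafish. Its levels were 16.8, 21.2 and 18.4 CPM in the morpholino libraries and 18.5, 17.5 and 22.4 CPM in the controls, which overlapped. The log2 fold change of -0.05 ± 0.12 did not pass (adjusted p = 0.857), and its 95% interval was -0.32 to 0.22. The copy ier2b stood at 0.20 ± 0.13 (adjusted p = 0.412).

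**Figure D3:**
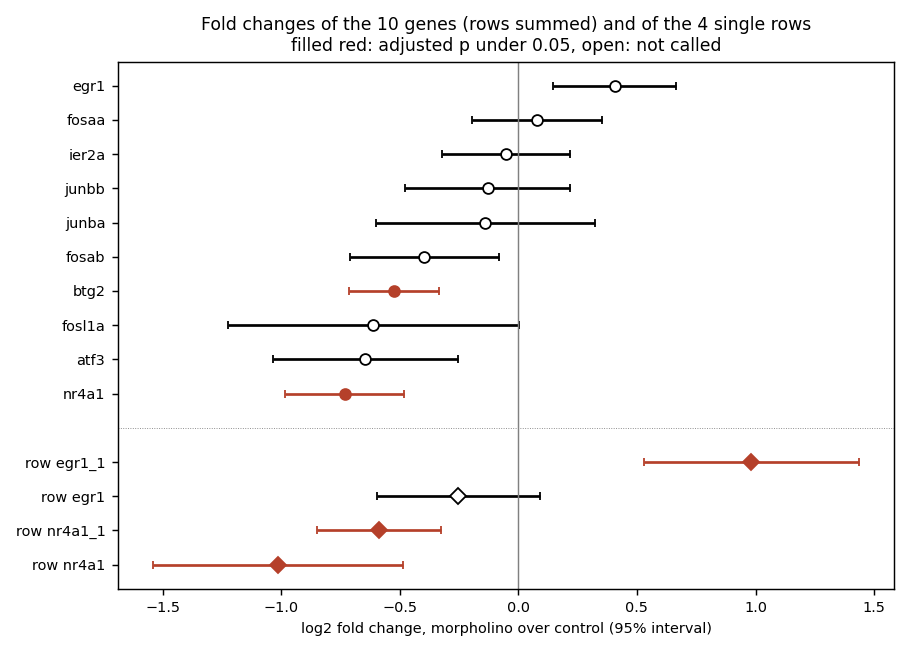
Log2 fold change, morpholino over control (x axis), with its 95% interval for each of the 10 genes with rows summed (circles) and for the 4 single rows of egr1 and nr4a1 (diamonds, below the dotted line). Filled red marks those called at an adjusted p under 0.05, and row egr1_1 is the one called above 0.

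Compared per length, the 10 genes spanned from 0.833 TPM (fosl1a) to 25.4 TPM (ier2a) in the morpholino group, and from 1.29 TPM (fosl1a) to 27.5 TPM (junbb) in the control group. In the morpholino libraries the order from the top was ier2a, junbb, egr1, btg2, junba, nr4a1, fosab, fosaa, atf3 and fosl1a. In the controls it was junbb, ier2a, btg2, nr4a1, egr1, junba, fosab, atf3, fosaa and fosl1a. Neighbours whose ranges overlapped were ier2a with junbb, egr1 with btg2, nr4a1 with fosab and fosaa with atf3 in the morpholino group. In the control group they were junbb with ier2a, ier2a with btg2, nr4a1 with egr1, egr1 with junba and junba with fosab. egr1 stood at rank 3 in the morpholino libraries, against rank 5 in the controls, and nr4a1 at rank 6 in the morpholino libraries, against rank 4 in the controls.

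Control library 3 had the highest level of 7 of the 10 genes among the controls, while it was the highest control for 33.4% of all genes tested. The median coefficient of variation of the 10 genes was 11.8% in morpholino libraries and 14.0% in controls, beside 10.5% in morpholino libraries and 9.91% in controls over all genes. Summed over the 10 genes the level was 121, 129 and 131 TPM in the morpholino libraries and 132, 140 and 172 TPM in the controls. For the Fos and Jun genes together the sums were 48.9, 52.5 and 52.5 TPM in the morpholino libraries and 47.4, 55.6 and 74.1 TPM in the controls, so that control library 1 lay below all morpholino libraries.

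**Figure D4:**
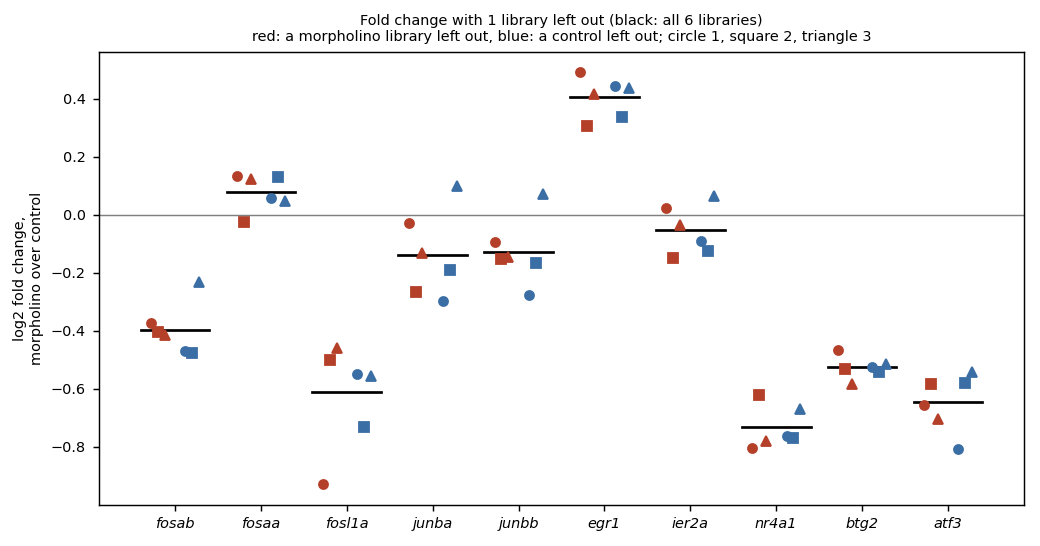
Log2 fold change of each gene, morpholino over control (y axis), in fits that left out 1 library, red for a morpholino library and blue for a control, with circle, square and triangle for libraries 1, 2 and 3 and a black line for all 6 libraries. The fold changes of fosab, fosl1a, nr4a1, btg2 and atf3 stay below 0, and that of egr1 stays above 0. Those of junba, junbb and ier2a cross 0 when control library 3 (blue triangle) is left out. That of ier2a also crosses without morpholino library 1, and that of fosaa without morpholino library 2.

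The closest relatives of the members were mostly not called. For this and the other lists, the shares over all genes tested were 3.31% called lower and 2.88% called higher. Counts at an unadjusted p under 0.05 cannot be read against these shares, since more genes pass that cutoff. Of 13 other AP-1 family genes 10 were tested with rows summed, and none was called in edgeR, DESeq2 or limma voom, with a median log2 fold change of -0.08 and 2 genes lower and 0 higher at an unadjusted p under 0.05. fosb, another Fos gene, held 26, 21 and 17 counts in the morpholino libraries and 48, 32 and 41 in the controls, at -1.08 ± 0.30 (adjusted p = 0.0573). Of the 12 alternative fits that tested fosb, only the 1 with no filter on low counts called it. jun, which encodes c-Jun, stood at 83.2, 83.8 and 82.4 CPM in the morpholino libraries and 92.0, 87.9 and 104 CPM in the controls, at -0.19 ± 0.07 (adjusted p = 0.160). Both had groups that did not overlap. With rows taken as deposited, edgeR called the plain row of atf7b, a bZIP gene, higher (0.85 ± 0.19, adjusted p = 0.0241), while its 3 rows summed stood at 0.22 ± 0.13 (adjusted p = 0.368).

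Of 10 other EGR, NAB and NR4A genes 1 fell and none rose, with a median of 0.02 and, at an unadjusted p under 0.05, 2 lower and 1 higher. The gene that fell was nr4a3, which encodes the receptor NOR1 and is a close relative of nr4a1. It had 7.29, 5.11 and 6.55 CPM in the morpholino libraries and 11.3, 13.3 and 12.8 CPM in the controls. nr4a3 fell by 0.98 ± 0.16 on the log2 scale (adjusted p = 0.00468) and was called in all 6 fits with 1 library left out. The other NR4A genes, named here after their values were seen, stood at 0.08 ± 0.25 for nr4a2a (adjusted p = 0.894) and 0.41 ± 0.15 for nr4a2b (adjusted p = 0.125), and nr4a2a turned to -0.21 without morpholino library 2 and to -0.0060 without control library 3. Of 9 genes of the BTG/TOB family and its deadenylase partners that were tested with rows summed, none was called in edgeR, DESeq2 or limma voom, and 1 was higher and 0 lower at an unadjusted p under 0.05. The smallest p-values were those of tob1b (0.18 ± 0.08, adjusted p = 0.207) and tob1a (-0.12 ± 0.07, adjusted p = 0.393). The rows of cnot1, which encodes the CCR4-NOT scaffold, moved apart, and in edgeR with rows as deposited both were called, row cnot1 lower (-0.94 ± 0.10, adjusted p = 6.3e-04) and row cnot1_1 higher (0.93 ± 0.08, adjusted p = 2.3e-04), while their sum stood at -0.06 ± 0.07 (adjusted p = 0.656).

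Among 49 other immediate early genes tested, 11 fell and none rose, or 22.4% lower beside 3.31% of all genes tested, with a median of -0.13. At an unadjusted p under 0.05 the numbers were 13 lower and 4 higher. In none of the 8 related lists did DESeq2 or limma voom call a gene higher. cebpd, a bZIP factor of acute responses, had 136, 132 and 133 CPM in the morpholino libraries and 219, 204 and 213 CPM in the controls. It fell by 0.66 ± 0.06 (adjusted p = 2.3e-04). gadd45ba, a stress sensor that binds MAP kinase kinase kinases, fell by 0.74 ± 0.09, to 35.4 ± 3.73 CPM in morpholino larvae, against 59.1 ± 5.04 CPM in controls. klf2a and klf11b, Krüppel-like zinc finger factors, fell by 0.75 ± 0.10 and 0.65 ± 0.09. The duplicate klf2b went the other way, with 35.4, 42.5 and 34.4 CPM in the morpholino libraries and 30.2, 27.7 and 29.9 CPM in the controls. Its log2 fold change of 0.36 ± 0.10 stood just outside the threshold (adjusted p = 0.0504). edgeR called 1 gene of this list higher with no filter, with at least 50 counts in 3 libraries and with replicate number as a block.

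Further calls in that list, named after their values were seen, were dusp1, the phosphatase that switches MAP kinases off, at -0.41 ± 0.09, mycb at -0.67 ± 0.10 and sik1, a CREB-induced kinase gene, at -0.48 ± 0.08. cebpd, gadd45ba, klf2a, klf11b, mycb and sik1 were each called whichever library was left out. The call of dusp1 was lost when library 1 or 3 of either group was left out. The remaining calls, also named after their values were seen, were csrnp1b (-0.38 ± 0.07), klf11a (-0.57 ± 0.11), socs3a (-0.67 ± 0.15) and gadd45bb (-0.62 ± 0.15). With 1 library left out, csrnp1b was called in all 6 fits, klf11a in 2, and socs3a and gadd45bb in 1 each. limma voom did not call socs3a. The count of 11 falls became 7 without control library 1 and 7 without morpholino library 3.

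Of 26 kinase and transcription factor genes upstream of the immediate early response 1 rose and none fell, with a median of 0.11 and, at an unadjusted p under 0.05, 3 higher and 1 lower. Over all genes tested 2.88% were called higher, so 1 of 26 was near that share. mapk8b, which encodes a JNK, had 76.0, 66.9 and 77.4 CPM in the morpholino libraries and 60.3, 59.0 and 62.2 CPM in the controls. It rose by 0.28 ± 0.07 (adjusted p = 0.0495), and the call was lost in DESeq2, in limma voom and with any library but morpholino library 2 left out. With rows as deposited the plain row of mapk14a, a p38 gene, was called lower (-1.20 ± 0.28, adjusted p = 0.0392), beside 0.83 ± 0.27 for row mapk14a_1 (adjusted p = 0.134) and 0.14 ± 0.10 for their sum (adjusted p = 0.451). The genes of serum response factor stood at -0.14 ± 0.14 (srfa) and -0.15 ± 0.15 (srfb), and neither passed. Of 10 genes of ERK feedback inhibitors, with rows summed, none was called in edgeR, DESeq2 or limma voom and 0 had an unadjusted p under 0.05, with a median of -0.02. The values of smallest p were dusp6 at -0.12 ± 0.07 (adjusted p = 0.345) and dusp4 at 0.43 ± 0.27 (adjusted p = 0.397). dusp4 stood at 0.21 without control library 2 and 0.75 without control library 3. The plain row of dusp6 stood at 0.04 ± 0.08 (adjusted p = 0.838), and row dusp6_1 was called lower (-0.39 ± 0.08, adjusted p = 0.0212).

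Of 14 integrated stress response genes, the pathway through which ATF4 induces atf3, 3 fell and none rose, with a median of -0.03 and, at an unadjusted p under 0.05, 3 lower and 1 higher. chac1, which encodes a glutathione-degrading enzyme, fell by 0.38 ± 0.07, with 267, 271 and 258 CPM in the morpholino libraries and 369, 339 and 330 CPM in the controls. asns, asparagine synthetase, fell by 0.56 ± 0.10, and ddit4, an inhibitor of mTORC1 signalling, by 0.42 ± 0.11. The call of ddit4 (adjusted p = 0.0406) was lost when any library other than control library 2 was left out. The ATF4 genes themselves stood at 0.06 ± 0.07 (atf4a) and -0.14 ± 0.12 (atf4b), with no call, and atf4a changed sign without morpholino library 2.

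Of 15 glucocorticoid-responsive and heat shock genes 3 fell and none rose, with a median of -0.34 and, at an unadjusted p under 0.05, 6 lower and 0 higher. The heat shock genes, with rows summed and all libraries, were not called and stood on both sides of 0. Above 0 were hsp70.1 (0.08 ± 0.47), hsp70l (0.19 ± 0.28) and hspa8 (0.29 ± 0.29). Below 0 were hsp70.2 (-0.37 ± 0.37), hsp70.3 (-0.51 ± 0.33) and hspb1 (-0.03 ± 0.10). klf9, a glucocorticoid-induced zinc finger gene in fish and mammals, had 34.1, 31.2 and 33.7 CPM in the morpholino libraries and 78.9, 66.7 and 74.5 CPM in the controls. It fell by 1.15 ± 0.08 on the log2 scale (adjusted p = 4.5e-05) and was called in all 6 fits with 1 library left out. per1a, a clock repressor gene, fell by 0.46 ± 0.09, and tsc22d3, which encodes the glucocorticoid-induced leucine zipper protein, by 0.34 ± 0.07. The call of tsc22d3 was lost without control library 2 or 3 and in its plain row alone (-0.20, adjusted p = 0.145). In DESeq2, and in edgeR without morpholino library 2, 5 genes of this list fell, and without morpholino library 1 it was 4. With only the plain row of each gene it was 2, and also without control library 3. The list median was -0.14 without control library 3. The part of these changes in the levels of the 10 genes was not tested.

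**Figure D5:**
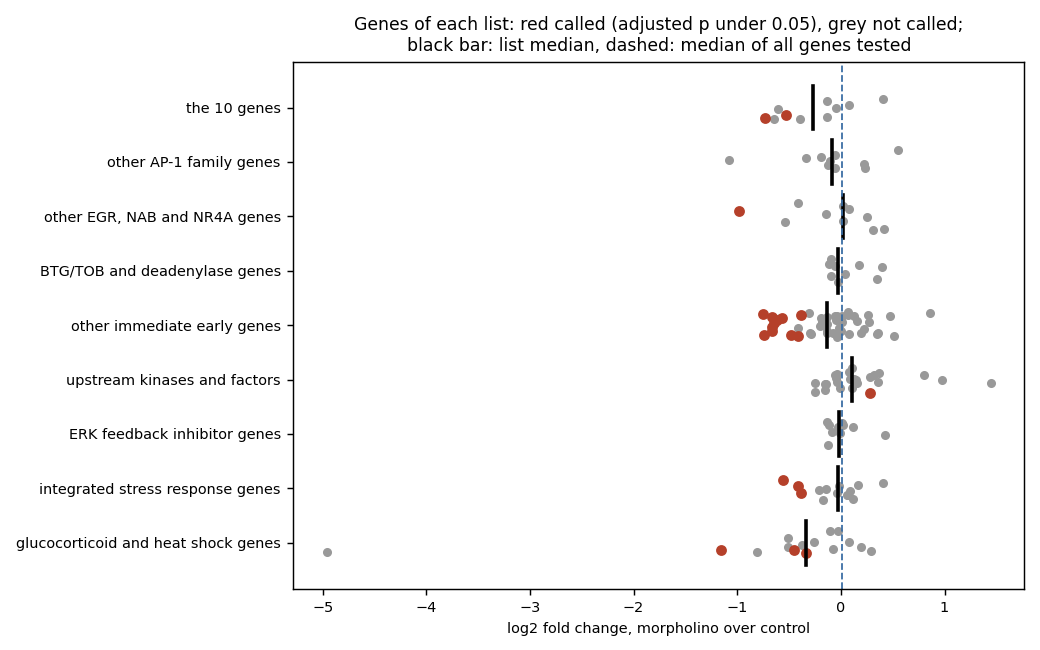
Log2 fold change, morpholino over control (x axis), of each tested gene in the 10 genes and in 8 related lists (y axis), with red for called and grey for not called genes, a black bar for the list median and a dashed line for the median of all genes tested. Called genes lie to the left of 0 except 1 of the upstream kinases (mapk8b), and the point near -5 is mt2, a metallothionein gene that was not called.

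Some tissue markers moved with the group too. Of the 21 markers 2 rose, the neutrophil gene mpx by 0.58 ± 0.14 and the embryonic globin gene hbbe1.1 by 0.37 ± 0.09, and 1 fell, the cartilage gene matn1 by 0.60 ± 0.08. Over all genes tested 2.88% were called higher and 3.31% lower. The other blood marker, the globin gene hbae3, overlapped between the groups and stood at -0.08 ± 0.07 (adjusted p = 0.595). The call of mpx was lost in limma voom and without morpholino library 3 or any 1 control library, and that of hbbe1.1 in 5 of the 6 fits with 1 library left out, all but the one without control library 1. The number called higher was 0 without morpholino library 3, control library 2 or control library 3. It was 1 when morpholino library 1 or 2 was left out and 3 when control library 1 was. The number called lower was 3 without control library 3 and 1 with any other library left out. DESeq2 called 3 markers higher and 2 lower. With only the plain row of each marker, edgeR called 3 higher and 1 lower. The plain row of the skin marker krt4 stood at 1.65 (adjusted p = 5.3e-06), while its 2 rows summed stood at 0.09 ± 0.07 (adjusted p = 0.523). Summed markers of macrophages and neutrophils ranged from 58.9 to 75.6 CPM in morpholino libraries and from 39.1 to 49.9 CPM in controls. Summed cartilage markers ranged from 915 to 1009 CPM in morpholino libraries and from 1260 to 1647 CPM in controls. Of these, matn1 did not overlap between the groups. The other, col2a1a, did, with 460 to 530 CPM in morpholino libraries and 507 to 877 CPM in controls. It stood at -0.61 ± 0.24 and was not called (adjusted p = 0.235). Summed neuron markers ranged from 467 to 475 CPM in morpholino libraries and from 417 to 442 CPM in controls. The exocrine pancreas marker prss1 ranged from 2429 to 3062 CPM in morpholino libraries and from 1660 to 2357 CPM in controls, at 0.46 ± 0.16 (adjusted p = 0.164). The summed markers of the other tissues overlapped between the groups. Taken singly, 2 of the 21 markers were without overlap and lower in the morpholino libraries, and 7 without overlap and higher. Of all single genes tested, 14.1% were without overlap and lower in the morpholino libraries, and 13.7% without overlap and higher. These shares are no baseline for summed markers. The muscle sum was mostly myhz2, at 5283 to 6042 CPM in morpholino libraries and 5209 to 5644 CPM in controls. The other muscle marker, ckma, did not overlap, with 328, 407 and 309 CPM in the morpholino libraries and 723, 631 and 1358 CPM in the controls. Its log2 fold change of -1.38 ± 0.36 was not called (adjusted p = 0.131). The part of these markers in the levels of the immediate early genes was not tested.

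Genes with the profile most like a member over the 6 libraries were found by the root mean square (RMS) difference of centred log2(CPM + 1) values, among genes with a mean of at least 5 CPM. For fosab they were zgc:86764 (0.022), vsig8b (0.038) and si:dkey-82f1.1 (0.052), with fosab itself varying by 0.22 around its mean. For egr1 they were grik1a (0.022), a kainate receptor gene, LOC101884098 (0.024) and wdr47a (0.034), with egr1 varying by 0.22. For atf3 they were e2f2 (0.051), a cell cycle transcription factor gene, ptgfrna (0.068) and aep1 (0.071), with atf3 varying by 0.32. None of these 9 genes is in the lists of relatives or of upstream factors. The search took the closest of many genes over 6 values, so small differences follow from it. Whether they were smaller than unrelated genes would give was not tested. Of the genes like atf3, e2f2 (adjusted p = 0.0305) and ptgfrna (adjusted p = 0.00903) were called lower, while aep1 and atf3 itself were not called.

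In coordinates of the GRCz11 build, as the table gives them, fosab (46552311 to 46554424, minus strand) and atf3 (37794678 to 37800737, plus strand) were on chromosome 20, egr1 (21333720 to 21335961, minus) and fosl1a (30739476 to 30747686, minus) on chromosome 14, and junbb (7654409 to 7656059, minus) and ier2a (33761549 to 33762730, plus) on chromosome 3. junba was on chromosome 1 (51732979 to 51734530, minus), fosaa on chromosome 17 (50225043 to 50233587, minus), btg2 on chromosome 22 (336063 to 338615, plus) and nr4a1 on chromosome 23 (32151333 to 32157843, minus). No other row with coordinates overlapped any of the 10 genes on either strand.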

How the data were processed

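Poly-A RNA of whole larvae was sequenced in 3 morpholino and 3 control libraries. The submitters' processing notes name HISAT2, RSEM, StringTie 1.3.1 and the GRCz11 build without saying what each was used for. The read counts deposited by the authors are whole numbers per row. The deposited FPKM equal the counts divided by row length and library size, and the TPM deposited by the authors are scaled to an equal sum per library. The sources used here do not say whether counting kept strand. Chromosome numbers were read from the table's RefSeq accessions and matched those of GRCz12tu RefSeq symbols in 30186 of 30547 rows.

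Counts of a symbol and its 16024 suffixed rows were summed (37685 genes). Genes were filtered with filterByExpr (minimum count 10, total 15), scaled with TMM and tested in edgeR 4.0.16 (R 4.3.3), robust quasi-likelihood, no covariate, called at a Benjamini-Hochberg adjusted p under 0.05. SE is the log2 fold change over the root of its F statistic. Alternatives used DESeq2 1.42.0 and limma 3.58.1. On counts simulated for this comparison (21975 genes), edgeR recovered 56 of 97 genes changed by 1 on the log2 scale and 92 of 98 changed by 2, with 17 false calls. DESeq2 made 44 false calls and limma voom 11. No change smaller than 1 was simulated, so recovery at the size of the members' changes, at most 0.73, was not measured.

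The 10 genes and the lists were chosen with earlier results of these data known, so no list was tested as a set. Of each related list, up to 4 called genes of smallest p are named, or 2 given as values where none was called. Profile likeness was computed for fosab, egr1 and atf3.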

Additional observations from a re-analysis of the deposited data

How the results depend on the processing

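nr4a1 and btg2 were called lower in all 13 alternative fits. Of 129 values of single members under the alternatives, 120 kept their direction and side of the threshold. With no filter on low counts 4 of the members were called, 1 of them higher (egr1) and 3 lower, atf3 being the third. Values that changed sign were egr1 at -0.25 in its plain row, fosaa at -0.024 without morpholino library 2, ier2a at 0.024 without morpholino library 1, and junba, junbb and ier2a at 0.099, 0.070 and 0.065 without control library 3; none of these was called under either setting, and the cause was not tested. Related genes called higher, 1 with all libraries, numbered 0 in DESeq2 and in limma voom. They numbered 2 with the replicate block, with no filter, with at least 50 counts in 3 libraries and with rows as deposited. In the lists, rows as deposited covers only the plain row of each gene, so row cnot1_1, called higher, is not among those 2. Over all rows as deposited, suffixed rows included, 1119 were called lower, beside 737 genes with rows summed. With 1 library left out, members called ranged from 2 to 3 (0 higher, 2 to 3 lower), related genes called from 13 to 18 (0 to 1 higher, 13 to 17 lower), and all genes called from 579 to 1070 (272 to 477 higher, 307 to 593 lower), beside 1378 with all libraries. Over the same fits fosl1a ranged from -0.93 to -0.46, fosaa from -0.024 to 0.13, junba from -0.30 to 0.099, junbb from -0.27 to 0.070 and ier2a from -0.15 to 0.065. The replicate block left 2 members called, 21 related genes and 1362 genes in all. Libraries of the same number correlated in their deviations from the group means at -0.04, 0.06 and 0.02. Not every library correlated best with its own number. No pairing by number was seen, but with 3 libraries per group these values cannot show whether libraries shared a clutch or batch. fosl1a could not be tested at 50 counts, and at 24 to 55 counts it is the member that depth limits most.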
